A study of Mus musculus with 2 samples.

Results

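Expression of apelin (Apln), its receptor (Aplnr) and the secreted proteoglycan Esm1 was described in endothelial cells of the embryonic mouse kidney. All probe sets that the platform annotation gives to exactly 1 of these 3 genes were taken, which yielded 4 of the 45101 probe sets on the array, 1 each for Apln and Esm1 and 2 for Aplnr. The 2 arrays of the series form 1 group. Each was hybridised with RNA from Tie2-GFP cells of CD-1 mice at E15.5, Theiler stage 23, sorted by fluorescence from a pool of approximately 5 to 10 trypsinised kidneys. The reporter, Tg(TIE2GFP)287Sato, drives GFP from the promoter of Tie2 (Tek), which is active in endothelium and also in some blood cells. The titles carry the name Flk1 (Kdr) and the labelled source is renal artery and vein endothelium, whereas the protocol dissociates the whole kidney. The labels do not tie the pools to separate litters, and their spread may thus be technical. With 1 group there was no contrast between conditions, and no test was made.

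Apelin is a small secreted peptide that endothelial cells make, above all at the growing ends of vessels. It acts on the apelin receptor, also called APJ or Agtrl1, a G protein-coupled receptor related to the angiotensin receptors. Apela (Elabela, or Toddler) is the second known ligand of this receptor. Esm1, or endocan, is secreted by endothelial cells and carries a dermatan sulfate chain. Tip cells lead a vessel sprout and are known for high Apln and Esm1, and stalk cells follow them. In the mouse retina, Aplnr is known mainly from veins and from endothelium behind the tip.

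All 4 probe sets were above background on both arrays, where background was the 95th percentile of 83 probe sets for sensory receptor genes (202.5 units in replicate 1 and 204.1 in replicate 2). Across the array 49.5% of probe sets were above background on both arrays. Apln (probe set 1451038_at) gave 1611 units in replicate 1 and 1662 in replicate 2, a mean of 1636 ± 35.5 (SD, n = 2). These values were 7.96 and 8.14 times the limits. The apelin signal was therefore nearly equal in the 2 pools.

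The receptor was measured with 2 probe sets. Probe set 1423037_at of Aplnr gave 23815 and 26100 units, a mean of 24957 ± 1616 (SD, n = 2), which was 118 and 128 times the limits. Probe set 1438651_a_at gave 67940 and 74519 units, a mean of 71229 ± 4652 (SD, n = 2), which was 336 and 365 times the limits. Both probe sets of Aplnr were slightly higher in replicate 2. Between them the gap was 1.51 on the log2 scale in either replicate, so they kept a constant ratio in the deposited values. After quantile normalization the ratio shifted, with log2 differences (replicate 1 minus replicate 2) of -0.18 for the first and -0.05 for the second. The suffix of the second marks probes shared by several transcripts of the gene. The highest values deposited for any probe set were 76745 and 77291 units, close to this probe set of Aplnr, and saturation was not tested because no flag for it was among the values used here.

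Esm1 (probe set 1449280_at) gave 3454 units in replicate 1 and 2671 in replicate 2, a mean of 3062 ± 554 (SD, n = 2). Its signal was 17.1 and 13.1 times the limits. Of the 4 probe sets it had the widest relative gap between the pools, and it alone was higher in replicate 1. Signal depends on the sequence of each probe, so the levels of Apln, Aplnr and Esm1 were not ranked against each other. In a sorted pool, fewer cells that make a transcript and less transcript per cell cannot be told apart.

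**Figure D1:**
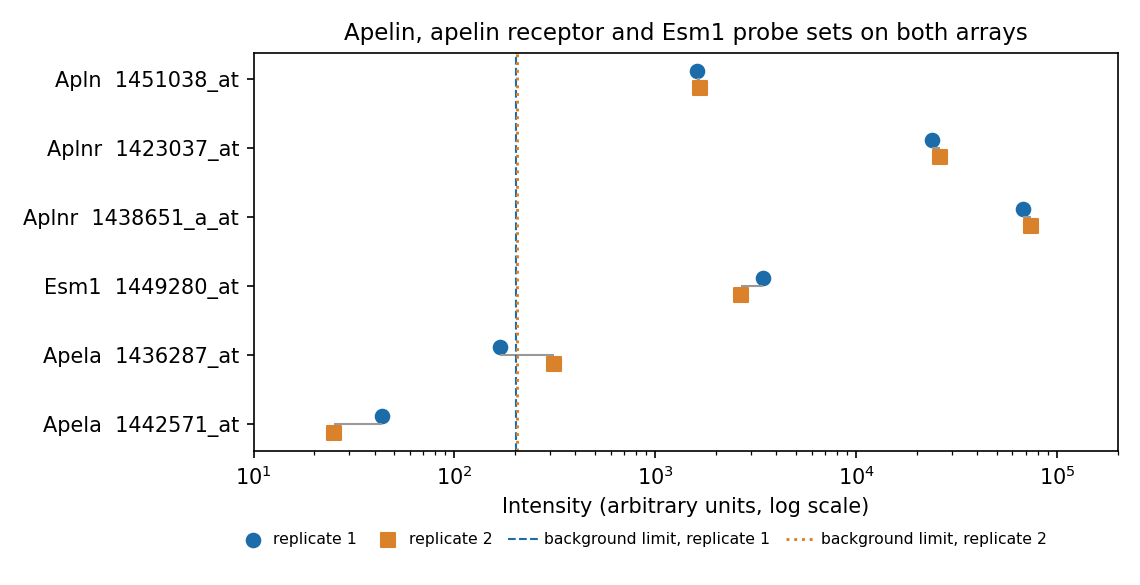
Intensity in arbitrary units (x axis, log scale) of each probe set of Apln, Aplnr, Esm1 and Apela in replicate 1 (circles) and replicate 2 (squares), with the background limits of 202.5 and 204.1 as vertical lines. The 4 probe sets of Apln, Aplnr and Esm1 lie right of both limits, and of the 2 Apela probe sets 1 passes the limit in replicate 2 alone.

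The second ligand, Apela, had 2 probe sets. The first, 1436287_at, gave 167.9 and 312.7 units and passed the limit in replicate 2 only. The other, 1442571_at, gave 43.6 and 25.0 units and passed it in neither. Apela was therefore not called above background on both arrays. This call depended on the limit, since with a fixed limit of 100 units, the lowest that was tried, its first probe set passed on both.

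Sequence upstream of the transcription start was taken from RefSeq for the 2 of 3 genes that had an entry, Apln and Esm1, because ETS factors are known regulators of endothelial promoters and apelin is known to be induced by low oxygen. Among the endothelial markers, the ETS factor Erg gave 10992 and 8860 units. The 250 bases before the start are shown 5′ to 3′ on the strand of the gene, from build GRCm38.p6 at chrX:48034854-48035103 (minus strand) for Apln and chr13:113209409-113209658 (plus strand) for Esm1. Capitals mark the ETS core GGAA and the hypoxia response core, ACGTG or GCGTG, on either strand.
Apln: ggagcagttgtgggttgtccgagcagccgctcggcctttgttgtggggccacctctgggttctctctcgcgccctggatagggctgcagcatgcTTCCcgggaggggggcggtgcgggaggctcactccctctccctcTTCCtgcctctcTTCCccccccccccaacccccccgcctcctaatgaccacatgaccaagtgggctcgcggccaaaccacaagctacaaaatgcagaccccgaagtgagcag
Esm1: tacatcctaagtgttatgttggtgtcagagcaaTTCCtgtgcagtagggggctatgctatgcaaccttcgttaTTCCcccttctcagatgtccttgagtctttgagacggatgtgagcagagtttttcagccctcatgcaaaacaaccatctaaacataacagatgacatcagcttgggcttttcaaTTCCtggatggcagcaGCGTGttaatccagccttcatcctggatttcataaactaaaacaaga
Each stretch held 3 copies of the ETS core, all read as TTCC on the printed strand, against a median of 3 over 32841 promoter stretches of the same length, of which 93.5% held at least 1. The longer ETS words CAGGAA and CCGGAA, which contain the core, were matched 1 time for Apln and 2 times for Esm1. At least 1 match was found in 35.1% of all stretches and at least 2 in 8.43%. The hypoxia core was found 1 time for Esm1, as GCGTG starting 47 bases before the start, and not in the window of Apln, against 38.6% of all stretches. The Apln stretch was 65.2% G and C and the Esm1 stretch 44.0%, with a median of 52.4% over all stretches. A match of letters is a description and shows no binding.

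Genes around the members were then counted by role. Where a gene had several probe sets, the brightest on average stood for it. In 12 lists, 82 of 89 genes were measured and 71 of these (86.6%) were above background on both arrays, against 61% of all 18193 genes. The 7 others were not analysed here. The lists included Apln and Aplnr themselves and were chosen with earlier results of these data known. The higher share is therefore a description of the genes chosen and no independent result about the members. Of the 46 genes with several probe sets, 20 had some above background and some not. Among genes given by value below, these were Mme, Akt1, Hdac4, Ace, Hgf, Fn1, Angpt2, Jag1, Notch4, Vegfa, Hif1a, Nr2f2 and Efnb2. Values in the following paragraphs are intensities in replicate 1 and then replicate 2.

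Of the enzymes that shape apelin, 2 of 3 were above background. Furin, a proprotein convertase that can cleave the apelin precursor, gave 702.9 and 624.8 units. Neprilysin (Mme), which breaks down apelin peptides, gave 205.2 and 604.8 units with its brighter probe set. The first of these Mme values lay just above the limit and the second was 2.92-fold higher after centring. The other Mme probe set was not above background on both arrays. Plasma kallikrein (Klkb1), which can also cut apelin, was below the limit at 6.73 and 60.2 units.

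Genes that carry the receptor's signal were nearly all above background. All 9 measured G protein, arrestin and receptor kinase genes were so. The inhibitory alpha subunits Gnai1, Gnai2 and Gnai3 are the classical partners of the apelin receptor. Gnai1 gave 7300 and 6699 units. Gnai2 gave 30607 and 25831 units. Gnai3 gave 20100 and 23324 units. These 3 subunits were thus all above background and differed by 1.10-, 1.20- and 1.15-fold between the arrays. Gna13, the alpha subunit that links the receptor to histone deacetylases in endothelium, gave 10423 and 14919 units. The remaining 5 genes of the list, Gnaq, Gna11, Arrb1, Arrb2 and Grk5, were above background too.

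Downstream effectors were above background for 10 of 11 genes. Nos3, the endothelial nitric oxide synthase through which apelin relaxes vessels, gave 4952 and 2456 units. It was the 1 gene of this list that was over 2-fold apart (2.03-fold, higher in replicate 1), whereas 4.8% of all genes above background were over 2-fold apart. The kinase Akt1 gave 4813 and 4167 units. Prkaa1, a catalytic subunit of AMP-activated kinase, gave 507.7 and 608.8 units. Hdac4, a histone deacetylase that apelin signalling moves out of the nucleus, gave 1142 and 878.9 units. The exception was the growth factor Fgf2, at 7.48 and 79.6 units, below the limit on both arrays.

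For the angiotensin system, to which the apelin receptor is related, only 2 of 6 measured genes were above background. Of the angiotensin type 1 receptors, Agtr1a passed the limit in replicate 2 only, at 110.4 and 245.8 units, and on both arrays with a limit of 100. Agtr1b passed on neither array, at 13.6 and 15.2 units. Angiotensinogen (Agt) was below the limit on both arrays at 24.0 and 27.2 units. Agtr1a, Agtr1b and Agt had 1 probe set each, and whether these respond to their transcripts was not tested. The converting enzyme Ace passed at 429.8 and 530.0 units with 1 of its 2 probe sets. The type 2 receptor Agtr2 gave 352.4 and 5807 units, 16.3-fold higher in replicate 2, in contrast to Aplnr, whose probe sets were both 1.09-fold apart. Agtr2 shared its direction with the renal stroma markers given below, and the part of stromal cells in its value was not tested.

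**Figure D2:**
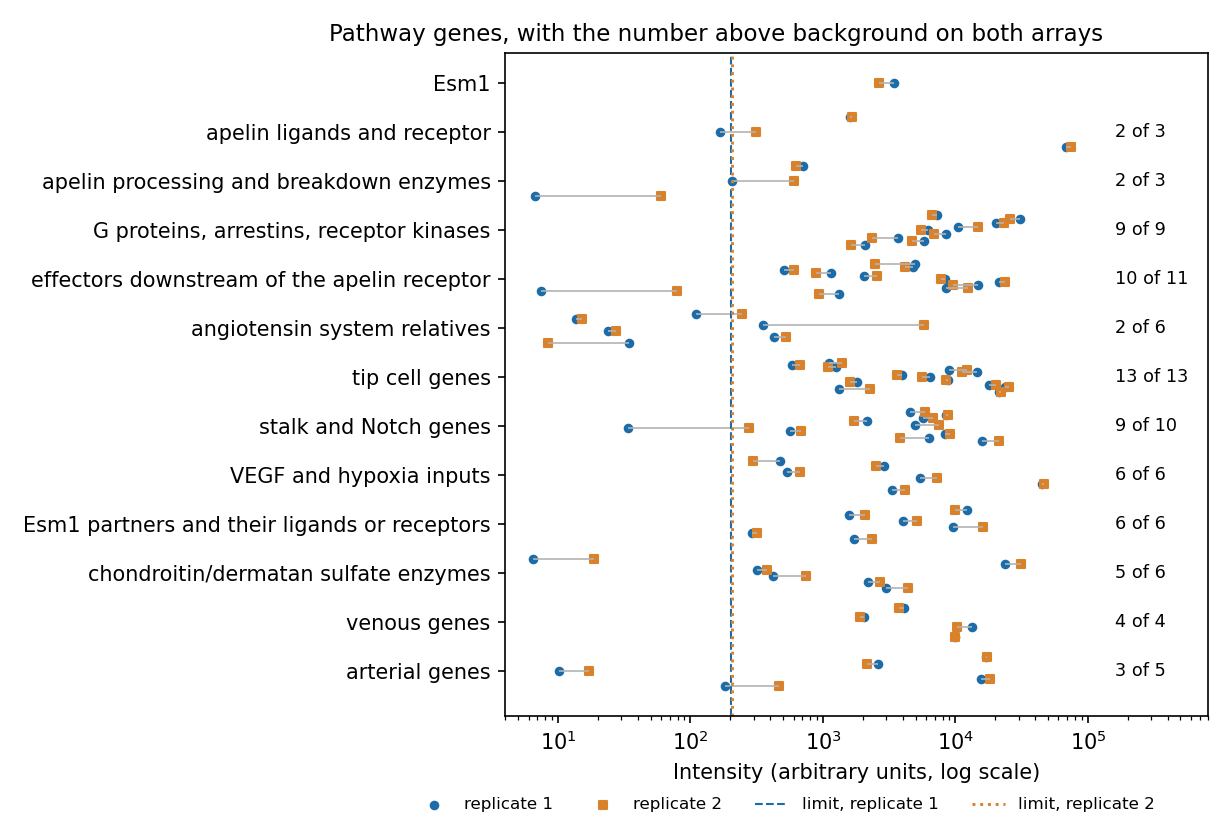
Intensity in arbitrary units (x axis, log scale) of each measured gene in replicate 1 (circles) and replicate 2 (squares), joined by a line, for Esm1 and the 12 lists, with the background limits as vertical lines and the number of genes above background on both arrays at the right. The tip cell list reached 13 of 13 and the angiotensin system list 2 of 6.

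Genes around Esm1 were considered next. A list of 6 genes held Fn1, Hgf and the LFA-1 subunits, whose products endocan can bind, with Icam1, a ligand of LFA-1, and Met, the receptor of Hgf. All 6 were above background, although Fn1, Hgf and Met were so with only 1 of their probe sets. Hgf gave 290.6 and 318.3 units, 1.44 and 1.56 times the limits, with 1 of its 3 probe sets. With 2 times the limit, 5 of the 6 genes remained. The endothelial adhesion molecule Icam1 gave 12199 and 9932 units. The LFA-1 subunits, which leukocytes make, gave 1572 and 2068 units for Itgal and 4027 and 5123 units for Itgb2. Fibronectin (Fn1) gave 9627 and 16260 units. Both LFA-1 subunits and Fn1 were higher in replicate 2, by 1.30-, 1.26- and 1.67-fold, whereas Esm1 was 1.30-fold higher in replicate 1. All 7 macrophage markers were also above background, at a summed 62798 and 68354 units, and the part of these cells in the LFA-1 values was not tested.

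The dermatan sulfate chain of Esm1 is built by enzymes of the chondroitin and dermatan sulfate pathway, of which 5 of 6 were above background. Chsy1, which extends the chain, gave 23859 and 31297 units. Chpf, its partner in extension, gave 318.2 and 376.7 units. Dse, an epimerase that turns chondroitin into dermatan sulfate, gave 418.2 and 749.1 units. All 5 were higher in replicate 2, with a median log2 difference of -0.38 against 0.02 over all genes above background. The renal stroma and mural markers given below were higher in replicate 2 as well, with medians of -1.97 and -0.63, and the part of these cells in the enzyme values was not tested. Xylt2, 1 of the enzymes that start the chain, was below the limit at 6.52 and 18.6 units.

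All 13 other tip cell genes were above background on both arrays, and none was over 2-fold apart. Angpt2, an antagonist of Tie2 made by sprouting endothelium, gave 1111 and 1383 units. The chemokine receptor Cxcr4 gave 586.9 and 670.7 units. The Notch ligand Dll4, which tip cells present to their neighbours, gave 1264 and 1090 units. These 3 genes differed by no more than 1.23-fold between the arrays. Kdr, the main VEGF receptor and the gene of the sample titles, gave 8939 and 12139 units. In the tip cell list 6 genes were higher in replicate 1 and 7 in replicate 2, with log2 differences from -0.75 to 0.39.

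Stalk and Notch genes were above background for 9 of 10. The Notch ligand Jag1, which opposes Dll4, gave 4577 and 5937 units. The receptors Notch1 and Notch4 gave 8539 and 8858 units, and 5724 and 6732 units. The target Hes1 gave 2162 and 1705 units. Hey2, a Notch target of arteries, passed the limit in replicate 2 only, at 34.0 and 275.0 units. Genes of both tip and stalk cells were thus above background, and the arrays give no share of tip cells.

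Genes of the list of VEGF and hypoxia inputs were above background in all 6 cases. Vegfa, which induces Esm1, gave 472.5 and 295.9 units with its brighter probe set, and the other probe set was not above background on both arrays. Vegfc gave 2879 and 2518 units and Vegfd 534.2 and 666.9 units. The hypoxia factor Hif1a, which acts on the Apln gene, gave 5427 and 7216 units. Of the 6 genes 2 were higher in replicate 1 and 4 in replicate 2, with a median log2 difference of -0.17.

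Since Aplnr is known as a gene of veins, vessel identity genes were listed beside it. All 4 venous genes were above background. The venous transcription factor Nr2f2 gave 4104 and 3779 units. Ephb4, the ephrin receptor of veins, gave 2032 and 1904 units. Nrp2 gave 13387 and 10292 units and the sialomucin Emcn 9912 and 9875 units. All 4 were slightly higher in replicate 1, by a median of 0.12 on the log2 scale, while both Aplnr probe sets were slightly higher in replicate 2. Of 5 arterial genes 3 were above background. Efnb2, the arterial ephrin, gave 16913 and 17389 units, the connexin Gja4 gave 2595 and 2162 units and the transcription factor Sox17 gave 15480 and 18213 units. The connexin Gja5 was below the limit at 10.1 and 17.1 units, and the kinase Bmx passed it in replicate 2 only, at 181.8 and 463.4 units.

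The pools were then compared for each member. Differences are log2 intensity of replicate 1 minus replicate 2, with the median difference of the probe sets above background set to 0. Apln differed by -0.03. Both Aplnr probe sets differed by -0.12. Esm1 differed by 0.38, or 1.30-fold. None of the 4 was over 2-fold apart, which was the case for 4.97% of all 22311 probe sets above background. All 4 lay within the SD of 0.50 of that distribution, and so did most of all these probe sets. Only 27.6% were as far apart as Gna13, at -0.50, or further.

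The gaps were also set beside those of the other probe sets. Of all probe sets above background, 94.2% were at least as far apart as Apln. For Aplnr 78.3% and 78.1% were at least as far apart. For Esm1 the share was 39.9%. All probe sets above background were also split by mean intensity into 10 bins of nearly equal size, and among the 2231 in the bin of each member the shares were 94.9% for Apln, 68.6% and 68.2% for Aplnr and 40.8% for Esm1. The SD of the differences in that bin was 0.54 for Apln, 0.35 for Aplnr and 0.49 for Esm1. The SD was smallest in the brightest of these 3 bins, and the gap of each member was smaller than the SD of its own bin. A gap inside the SD was common over all probe sets above background, so it does not set the members apart.

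**Figure D3:**
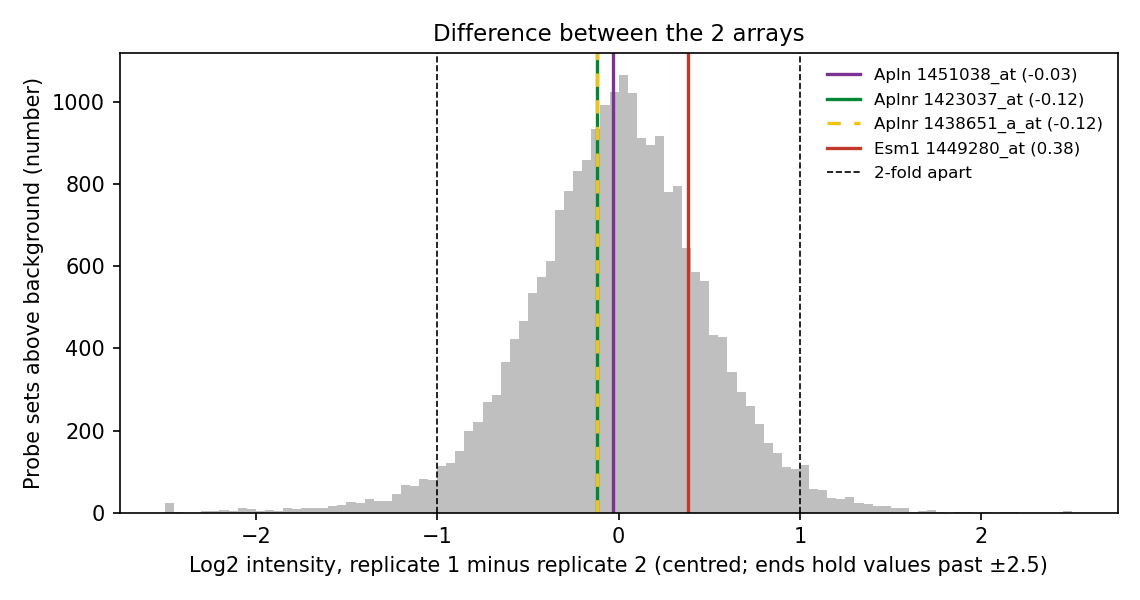
Number of probe sets above background (y axis) by log2 intensity of replicate 1 minus replicate 2 after centring (x axis), with the 4 probe sets of Apln, Aplnr and Esm1 as coloured lines and a 2-fold difference as dashed lines. Apln at -0.03, Aplnr at -0.12 and Esm1 at 0.38 all lie inside the 2-fold lines.

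Cell type markers were read beside these values. All 8 endothelial markers were above background, at a summed 101745 and 99768 units, and their log2 differences ran from -0.83 to 0.47 with a median of 0.06. Tek itself gave 15908 and 21499 units, a difference of -0.42. The 4 member probe sets fell inside the range of these markers, and so did most of all probe sets above background. Of these, 31.0% were as far apart as Egfl7, at the 0.47 end, or further. The 8 renal stroma markers summed to 7758 and 28397 units, and 7 of the 8 were above background. All 7 were higher in replicate 2, with a median difference of -1.97 and 6 of 7 over 2-fold apart. Apln, at -0.03, and Aplnr, at -0.12, went in this direction, and Esm1 went in the other. The part of stromal cells in these differences was not tested. Mural markers were above background for 4 of 6 genes, and all 4 of these were higher in replicate 2, with a median of -0.63. The mural list summed to 6607 and 11082 units. The 5 erythroid markers summed to 57996 and 50441 units, of which 55397 and 48789 came from Hbb-y, and 4 of the 5 passed the limit. Of these 4, 3 were higher in replicate 1, the direction of Esm1, with a median of 0.60 and Hbb-bh1 2.43-fold apart. The part of erythroid cells in the Esm1 difference was not tested. Epithelial markers passed in 2 of 7 cases, nephron progenitor markers in 2 of 5 and podocyte markers in 1 of 3. The podocyte marker that passed was Podxl, at 29868 and 30060 units, and its cell source was not tested. Nphs1 passed on neither array and Wt1 in replicate 2 only.

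**Figure D4:**
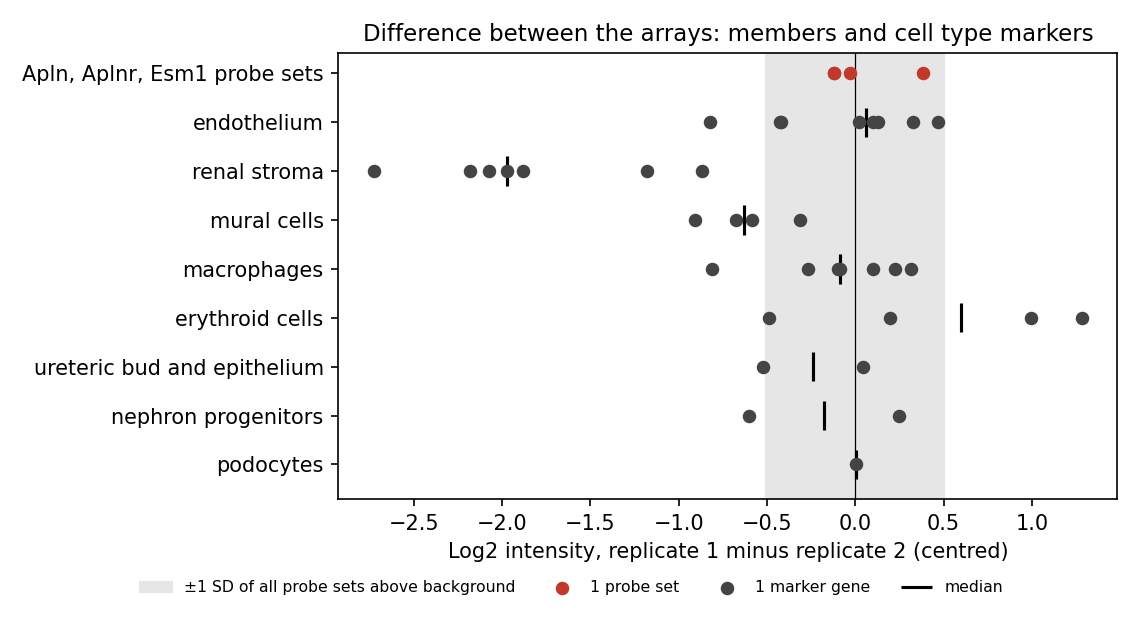
Log2 intensity of replicate 1 minus replicate 2 after centring (x axis) of the 4 probe sets of Apln, Aplnr and Esm1 (red) and of the marker genes above background of 8 cell types (dark), with list medians as bars and the SD of 0.50 of all probe sets above background in grey. The red points lie in the grey band with most endothelial markers, as do most of all probe sets above background. The renal stroma markers lie left of it with a median of -1.97.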

How the data were processed

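The deposited values were intensities on a linear scale, 1 per probe set of an Affymetrix 3' expression array, for 2 arrays. The submitters' processing notes name GCOS, with no version. RNA had been amplified in 2 rounds. The mean without the lowest and highest 2% of values was 1500 on both arrays, so the authors had scaled them before deposit. Median intensities were 233.4 and 246.7 units, and the number of arrays limits the precision. The 3' over 5' signal of Actb was 3.15 and 3.67, and that of Gapdh 19.5 and 22.3. Signal of both controls was thus weaker toward the 5' end, and the part of this in values below the limit was not tested. The study's own methods concern a different array and a single amplification, and were not applied here.

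Of 45101 probe sets, 34945 had 1 gene in the platform annotation, 932 several and 9160 none, and 64 were controls. Identifiers of 34741 matched a mouse gene table (GRCm38.p6). Background was the 95th percentile of 83 probe sets of 75 receptor genes of smell, taste and the vomeronasal organ. A feature counted as above background only where both arrays passed it. Differences were centred on the probe sets above background (offset -0.01). The steps were tested on simulated data. Python 3.11.15, NumPy 2.4.6 and pandas 2.3.3 were used.

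The members and lists were chosen with earlier results of these data known. The text names all member probe sets, and of each pathway list up to the first 4 measured genes, those that fell across the limit from the majority of their list and those over 2-fold apart, with Tek and Kdr. Marker lists are given by their counts, and some of them also by their sums or differences. Each sum was taken over all measured genes of a list, also those below the limit. Erg, Hgf, Hbb-y, Podxl, the marker genes named with a difference, and the genes named without values, were chosen after their values were seen. Alternatives were a limit of 100 units, 2 times the limit, the 99th percentile, quantile normalization, no centring, a pseudocount of 50, other choices of probe set and each array alone.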

Additional observations from a re-analysis of the deposited data

How the results depend on the processing

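All 4 probe sets of Apln, Aplnr and Esm1 stayed above background under each of the 6 alternatives, including a limit of 100 units, 2 times the limit, the 99th percentile of the sensory receptor probe sets, and either array alone. The count of pathway genes above background, 71 of 82, ran from 62 to 75 over 8 alternatives. Of 96 counts for single lists, 90 stayed within 1.5 times the first count, and 6 did not, in the lists of apelin enzymes, angiotensin genes and venous genes. Differences between the arrays moved by at most 0.08 on the log2 scale over 5 alternatives and none changed sign. They ran from -0.09 to -0.02 for Apln, from -0.18 to -0.10 and from -0.18 to -0.05 for the Aplnr probe sets, and from 0.32 to 0.40 for Esm1. Centring on the endothelium markers was chosen after seeing the data. No paired analysis was possible because the series has 1 group. The 2 arrays of 1 group give no error for a difference between pools, and no detection call or saturation flag was among the values used here.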
